A study of Mus musculus with 6 samples.

Results

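The aminoacyl-tRNA synthetases are the enzymes that load each tRNA with its amino acid, and 36 of their genes were followed in forebrain RNA of mice after a short psychological stress. The genes were taken by symbol, under the older symbols used in the count tables, and all 36 were found among the 23282 entries. A symbol ending in 2 was read as a mitochondrial enzyme, which gave 16 mitochondrial genes. The other 20 were read as cytosolic, including Gars and Kars, which serve both compartments.

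RNA came from 1 forebrain hemisphere of each mouse, with the olfactory bulbs and cerebellum removed, and was sequenced with QuantSeq 3′ libraries, which read a fragment next to the poly(A) tail of each transcript. All mice were C57BL/6J males. In the water avoidance stress (WAS) group, 3 mice sat for 1 h on a small platform surrounded by water, and in the control group 3 mice sat on the same platform for 1 h in a dry container. Each library was 1 mouse, so p-values measure the spread among these few animals. In bulk tissue, fewer cells of a type and less RNA per cell cannot be told apart.

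The libraries held 9248520 to 10502029 counts, of which the synthetases took 0.155% to 0.177%. The column headings begin with WC in the tables labelled WAS and with WS in those labelled control, and both these letters and the directions in the study's own gene list run against the sample labels. Groups are named here as the libraries are labelled, and every sign, those of Cars2, Eif2ak4 and Slc7a1 included, would turn round if the labels were exchanged. Neuron, astrocyte and oligodendrocyte markers were all present, as in forebrain tissue. The summed level of 5 neuron markers was 4241 to 4954 CPM (counts scaled to a common library size) in the libraries labelled WAS. It was 5239 to 5769 CPM in the controls, with no overlap. All 5 had a log2 fold change below 0, and 3 did not overlap singly. Snap25 and Gad1 did overlap, and Gad1 had a log2 fold change of -0.05. The sum of 4 midbrain monoamine neuron markers was 19.9, 4.92 and 44.0 CPM in WAS 1 to 3 and 2.48, 2.84 and 4.52 CPM in control 1 to 3. WAS 2 thus lay close to control 3. The sum of 4 meninges markers was 129, 76.5 and 125 CPM in WAS 1 to 3 and 74.1, 55.9 and 95.4 CPM in the controls, and all 4 had a log2 fold change above 0, with Dcn at 2.34-fold (unadjusted p 0.00229). All 7 blood markers were above 0 too, with sums of 1887 to 3182 CPM against 1718 to 2310 CPM. The sum of 5 choroid plexus markers ran from 16.04 to 1234 CPM and was low in WAS 1 and control 2. No marker of these lists was at 0 in all libraries, and their part in the values below was not tested.

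Cytosolic synthetases charge tRNAs for ribosomes in the cell body and processes, and several of them are held together with scaffold proteins in the multi-synthetase complex. Mitochondria translate their own few messages, with synthetases that are encoded in the nucleus and imported. When amino acids run short, uncharged tRNA activates the kinase GCN2, which phosphorylates the translation factor eIF2α and so raises the transcription factor ATF4. Many cytosolic synthetase genes are known ATF4 targets, and their mitochondrial counterparts are generally not counted among them. Inherited defects of either set are known causes of neuropathy, leukodystrophy or encephalopathy.

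The study named aminoacyl-tRNA biosynthesis among the altered pathways of its joint RNA and metabolite analysis, where it did not pass after adjustment. No synthetase was in the study's list of changed genes. The sequence shared by ATF4 targets offers a way to divide the synthetases that does not use expression. The C/EBP-ATF response element, written TGATGNAAN, was searched on both strands of RefSeq promoters on GRCm38.p6, each running from 250 bases before to 50 bases after the start of a gene. Promoters of 27 synthetases were matched. No promoter was matched by symbol for Cars, Hars, Lars, Nars, Rars, Vars, Wars, Hars2 and Pars2, so these were not searched. The element stood in a promoter of 5 of 13 cytosolic genes (38.5%) and of 0 of 14 mitochondrial genes, against 4.50% of the 27025 genes in the table and 3.95% of its 32851 promoters. The sites are printed because they mark which of the searched synthetases carry the element of the amino acid response. The element is in capitals, on the strand of the gene.
Aars, upstream site, chr8:111033703-111033763, plus strand: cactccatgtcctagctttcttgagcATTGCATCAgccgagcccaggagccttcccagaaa
Aars, downstream site, chr8:111033824-111033858, plus strand: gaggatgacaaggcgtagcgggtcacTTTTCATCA
Gars, chr6:55037944-55038004, plus strand: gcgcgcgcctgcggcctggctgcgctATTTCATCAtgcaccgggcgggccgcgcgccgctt
Iars, chr13:49682110-49682144, plus strand: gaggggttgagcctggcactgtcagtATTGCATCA
Tars, chr15:11399644-11399700, minus strand: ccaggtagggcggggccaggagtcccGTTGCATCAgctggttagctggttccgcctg
Yars, chr4:129189880-129189917, plus strand: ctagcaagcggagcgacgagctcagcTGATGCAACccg

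The element began 113 bases before the start of Aars, 31 before that of Gars and 16 before that of Tars. The second Aars site and those of Iars and Yars began 9, 7 and 4 bases into the transcribed part, counting the start base as 1. The match is one of letters only. For contrast, the 250 bases before the start of Cars2, the mitochondrial cysteinyl enzyme described further on, held no match.
Cars2, chr8:11550772-11551021, minus strand: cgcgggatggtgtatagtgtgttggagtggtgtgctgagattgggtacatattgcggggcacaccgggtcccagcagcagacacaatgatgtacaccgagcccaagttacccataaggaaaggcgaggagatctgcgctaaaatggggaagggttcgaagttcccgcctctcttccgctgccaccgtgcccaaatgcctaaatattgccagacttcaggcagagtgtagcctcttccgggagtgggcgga

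Cytosolic synthetase transcripts were the more abundant set in these forebrains. A transcript gives about the same number of 3′ fragments whatever its length, so CPM values are given as they stand, and values per kilobase of the longest annotated transcript beside them. The median level was 49.6 CPM over the cytosolic genes and 9.42 CPM over the mitochondrial genes, or 16.4 and 3.98 CPM per kilobase. Of the 20 cytosolic genes, 10 were above 50 CPM and none was under 10, whereas 1 mitochondrial gene was above 50 CPM and 8 were under 10.

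Nars, which charges asparagine tRNA, was the highest cytosolic member. Its level was 224, 192 and 204 CPM in WAS 1 to 3 and 197, 202 and 195 CPM in control 1 to 3. Sars, for serine, followed with 208, 145 and 180 CPM against 164, 167 and 181 CPM. The groups overlapped in both, and WAS 1 held the highest and WAS 2 the lowest value of each. Eprs, a fused enzyme for glutamate and proline, Gars, for glycine, and Farsb, the β subunit of the phenylalanine enzyme, had mean levels of 137, 112 and 105 CPM. Farsa, the α subunit of the same enzyme, had a mean of 61.1 CPM. Mars, Aars, Kars and Yars, for methionine, alanine, lysine and tyrosine, lay between 50.1 and 80.4 CPM. Hars, Lars, Tars, Wars, Qars, Iars and Rars lay between 32.9 and 49.1 CPM, and Dars, Cars and Vars, for aspartate, cysteine and valine, at 23.9, 20.4 and 17.3 CPM. The cytosolic set therefore spanned about an order of magnitude in CPM.

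Among the mitochondrial enzymes, Iars2, for isoleucine, stood far above the rest at 69.2 CPM. Hars2, Yars2, Lars2, Vars2, Aars2, Tars2 and Fars2 had means between 10.1 and 21.0 CPM. Cars2, Ears2, Rars2, Wars2, Nars2, Mars2, Pars2 and Sars2 were the 8 genes under 10 CPM. Sars2, the mitochondrial serine enzyme, was the lowest member of all with 18 to 35 counts in a library and a mean of 2.42 CPM. Counting error alone is large at such levels, and the median coefficient of variation within groups was 13.7% over the mitochondrial genes and 8.92% over the cytosolic genes, against 14.0% over all genes tested.

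**Figure D1:**
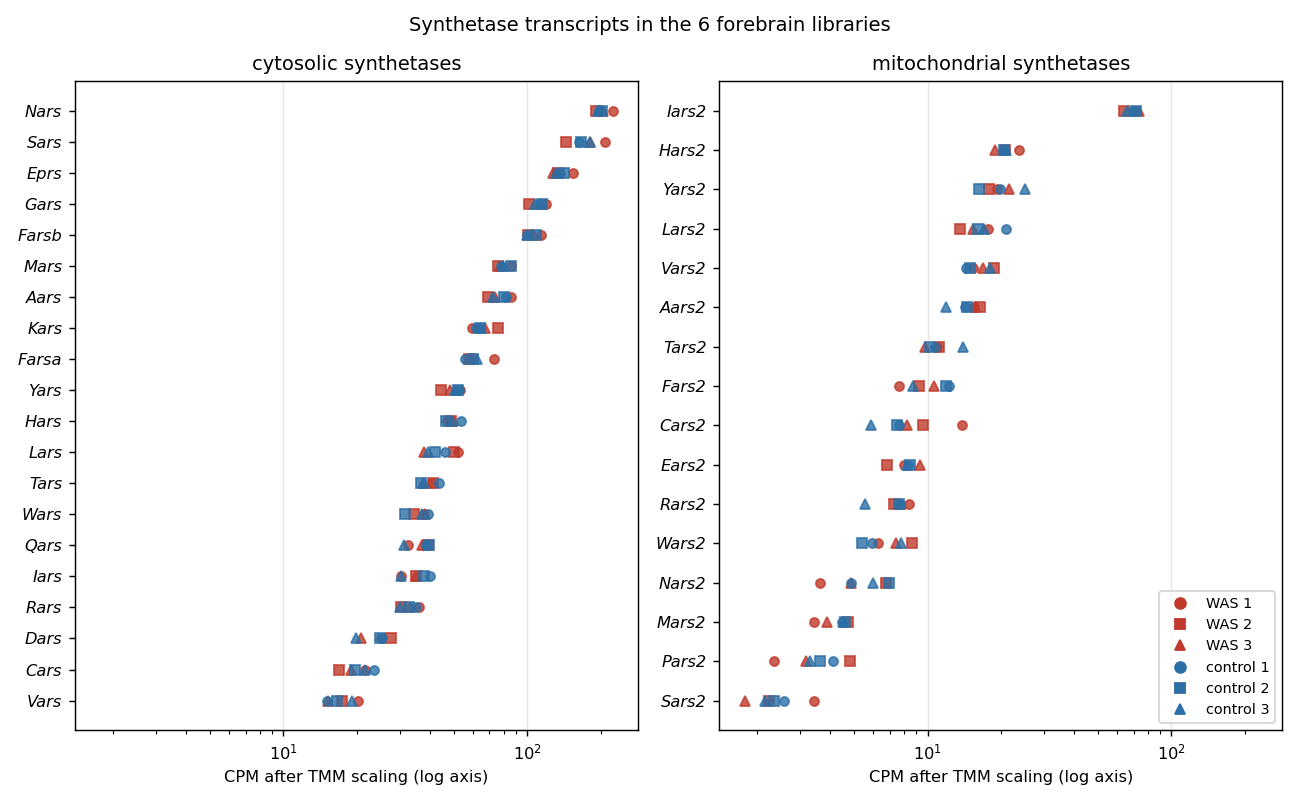
Level of each synthetase in the 6 libraries, in CPM after TMM scaling on a log axis; red symbols are the libraries labelled WAS, blue symbols the controls, and circles, squares and triangles are replicates 1, 2 and 3. Cytosolic genes run from Vars at a mean of 17.3 CPM to Nars at 202 CPM, mitochondrial genes from Sars2 at 2.42 CPM to Iars2 at 69.2 CPM, and red and blue symbols are mixed in nearly all genes.

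Some of these levels may include reads of a neighbour. Bedtools counted the reads, and whether it used their strand is not given in the sources used here. In the GENCODE annotation of GRCm38, exons of another gene overlap the last exon, where 3′ reads fall, in 6 synthetases. The last exon of Iars2 shares 2034 of its 2466 bases with exons of Rab3gap2 on the opposite strand, and that of Mars shares 67 of 219 bases with Ddit3. The ratio of Rab3gap2 to Iars2 was 1.13 to 1.23 in the 6 libraries, with a coefficient of variation of 3.02%, where counting error of separate reads alone would give 5.19%. The ratio of Ddit3 to Mars was 0.853 to 0.927, with a coefficient of variation of 2.93% where counting error would give 5.16%. Iars2 and Mars are therefore uncertain as separate measurements. Aars overlaps Exosc6 on the same strand (1326 of 2646 bases). Farsb overlaps Sgpp2 (248 of 248), Yars overlaps C77080 (30 of 1177) and Cars2 overlaps Naxd (215 of 215). For these genes the ratio of the counts varied by 13.5% to 26.5%, above the counting error of 7.96% to 12.9%. A varying ratio does not show that no reads were shared, so these genes too may not be separate measurements. The last 500 bases of Aars also lie in Exosc6, so strand could not separate reads there.

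By summed level, the balance between the compartments differed between the groups by less than the spread among mice. Summed over the 20 cytosolic genes, the level was 1520, 1337 and 1380 CPM in WAS 1 to 3 and 1400, 1403 and 1360 CPM in control 1 to 3, or 1412 ± 95.7 against 1388 ± 23.8 CPM (SD, n = 3). Summed over the 16 mitochondrial genes, it was 229.7, 222.7 and 229.2 CPM against 228.4, 222.4 and 224.7 CPM, or 227 ± 3.89 against 225 ± 3.03 CPM. The mitochondrial sums lay within a few percent of each other in all 6 mice, and WAS 1 was the highest library for the cytosolic sum. The cytosolic sum was 6.62, 6.00 and 6.02 times the mitochondrial sum in the libraries labelled WAS and 6.13, 6.31 and 6.05 times in the controls. The mean ratio was 6.21 ± 0.351 against 6.16 ± 0.132, a difference smaller than either SD, with no test since the ratio is a score over the members. Taken instead as the difference between the median log2 CPM of the compartments, it was lower by 0.081 in the libraries labelled WAS, where the log2 ratio of the sums was higher by 0.010 with an SD of 0.061 within groups. Per kilobase the ratio was 7.31 to 7.80 over the libraries, and without Mars and Iars2 it was 7.95 to 8.99.

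WAS 1 held the highest value of 12 of the 20 cytosolic genes, while it held the highest value of 20.6% of all genes tested. WAS 2 held the lowest value of 7 cytosolic genes, against 15.7% of all genes. The highest values of the 16 mitochondrial genes were spread over all 6 libraries, with 1 to 5 genes in each. The larger SD of the cytosolic sum in the group labelled WAS thus came from WAS 1 and WAS 2 lying apart, on either side of the controls.

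**Figure D2:**
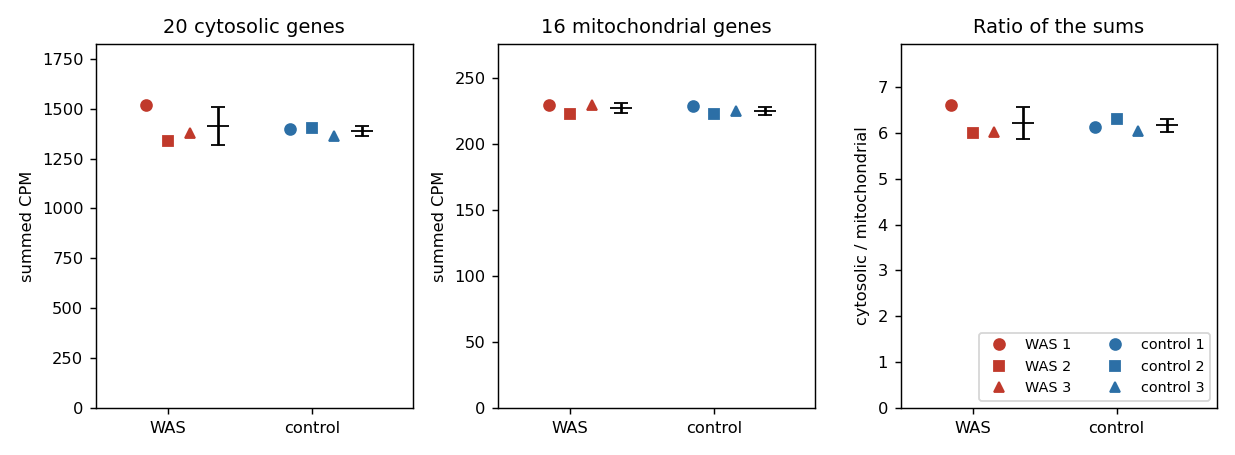
Summed CPM of the 20 cytosolic genes (left) and the 16 mitochondrial genes (middle), and the ratio of the sums (right), for each library by group, with black bars for the mean and SD of 3 mice and axes starting at 0. The groups overlap in all panels, and WAS 1 has the highest cytosolic sum (1520 CPM) and the highest ratio (6.62).

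Taken amino acid by amino acid, the cytosolic gene was the higher of the pair in most cases. In 15 pairs, with Eprs standing against both Ears2 and Pars2, the cytosolic gene had the higher CPM in all 6 libraries in 13, and per kilobase in 12. Sars exceeded Sars2 most, by a mean factor of 74.2 in CPM (60.6 to 101), and Eprs exceeded Pars2 41.0 times and Nars exceeded Nars2 39.1 times. Per kilobase the order was another, with Mars over Mars2 highest at 73.0 (19.1 in CPM), which rests on the Mars counts that followed those of Ddit3 and on a Mars2 transcript annotated at 11294 bases, then Nars over Nars2 at 53.9, Sars over Sars2 at 38.8 and Eprs over Pars2 at 25.5. At the other end, Vars and Vars2 were close to equal, with a ratio of 0.901 to 1.32. Iars was below Iars2 in every library, with a ratio of 0.432 to 0.576, and this pair rests on the Iars2 counts that followed those of Rab3gap2.

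The ratio of Cars to Cars2 was the pair that differed most between the groups. It was 1.56, 1.77 and 2.30 in WAS 1 to 3 and 3.10, 2.61 and 3.68 in control 1 to 3. The groups did not overlap, and the mean of the log2 ratio was lower by 0.74 in the libraries labelled WAS. Rars over Rars2 was the only other pair without overlap, at 4.23 ± 0.0573 against 4.76 ± 0.605 (SD, n = 3). WAS 1 at 4.27 and control 2 at 4.31 were close, and control 3 was the highest at 5.44. With 3 mice a group, the smallest two-sided p that an exact permutation test can give is 0.1, so these ratios are given as a description. As a share, 2 of 15 pairs is near the 11.7% of all single genes tested whose groups did not overlap.

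The test singled out 1 synthetase, and only before adjustment for the number of genes. In edgeR's quasi-likelihood test over 15239 genes, 1 of the 36 had an unadjusted p under 0.05, against 7.24% of all genes tested (3.85% of all genes with the WAS mean higher and 3.4% with it lower), and the same gene, Cars2, alone met the study's criteria of that p and a fold change of at least 1.5, against 2.49%. After Benjamini-Hochberg adjustment over all genes tested, 0 of the 36 and 0% of all genes passed, and the lowest adjusted p among the synthetases was 0.633. Cars2 and Aars2 were the 2 of 36 genes whose groups did not overlap in CPM, against 11.7% of all genes. As shares of 36, these counts are near or under those of all genes.

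The intervals say how large a difference these libraries leave room for. The 95% interval of the fold change lay wholly within 1.5-fold in either direction for 28 of the 36 genes, against 55.4% of all genes tested. These were all 20 cytosolic genes and 8 of 16 mitochondrial genes. The mitochondrial genes with wider intervals were Fars2, Cars2, Rars2, Wars2, Nars2, Mars2, Pars2 and Sars2, 7 of which were under 10 CPM. For those genes a difference beyond 1.5-fold lies within the interval. The log2 fold change was above 0 in 20 and below 0 in 16 synthetases, against 50.2% of all genes above 0, with a median of 0.020 and a range of -0.27 (Fars2) to 0.59 (Cars2), against a median of 0.0009 over all genes.

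**Figure D3:**
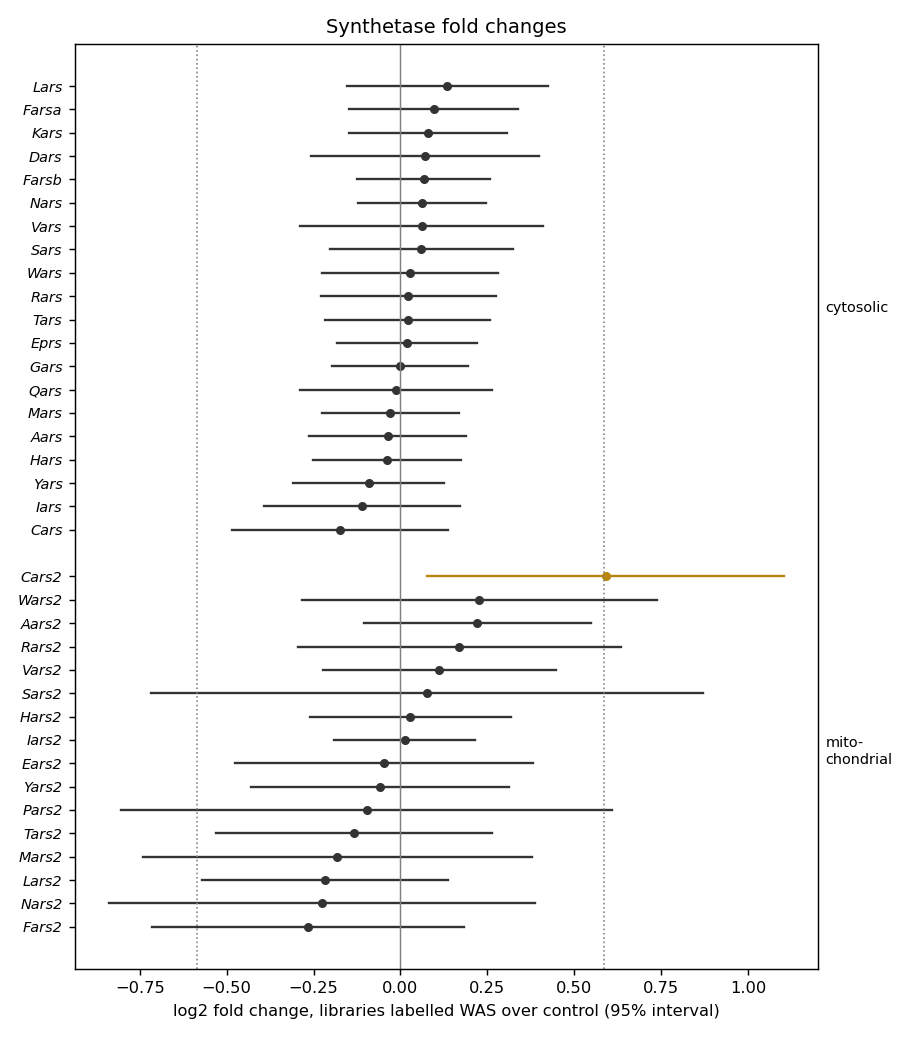
Log2 fold change of each synthetase, libraries labelled WAS over control, with its 95% interval from edgeR; dotted lines mark 1.5-fold in either direction, and the gold point is the gene with an unadjusted p under 0.05. The 20 cytosolic intervals (upper block) lie inside the dotted lines, and the Cars2 interval alone lies wholly on one side of 0.

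Cytosolic genes stayed close to 0. Of the 20, 12 had a log2 fold change above 0 and 8 below, with a median of 0.022, and none passed the test (lowest unadjusted p 0.243, for Cars). Lars, for leucine, had the highest log2 fold change, 0.14 with an SE of 0.13. Its level was 52.1, 50.04 and 37.8 CPM against 46.2, 42.1 and 39.1 CPM, so WAS 3 was the lowest library of its gene while WAS 1 and WAS 2 were the highest. Without WAS 3 its unadjusted p was 0.0476 and its log2 fold change 0.27. Farsa and Kars had log2 fold changes of 0.10 and 0.08. Cars and Iars had the lowest log2 fold changes, at -0.17 and -0.11. Gars, one of the pair that serve both compartments, had a log2 fold change of -0.0005 with a fold change interval of 0.873 to 1.14.

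The 8 cytosolic enzymes of the multi-synthetase complex (Dars, Eprs, Iars, Kars, Lars, Mars, Qars and Rars) had 5 log2 fold changes above 0 and 3 below, with a median of 0.021. The branched-chain amino acids, which the study followed as metabolites, are charged by Iars, Lars and Vars with their mitochondrial counterparts. Of these 6 genes, 4 were above 0 and 2 below, with a range of -0.22 (Lars2) to 0.14 (Lars), and all 6 intervals lay within 1.5-fold. Synthetases also fall into classes by the fold of their catalytic core. The median log2 fold change was -0.0002 over 18 class I genes and 0.028 over 17 class II genes, with Eprs, which holds a core of either class, in neither.

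The 5 cytosolic genes with the C/EBP-ATF element in the promoter windows shown above were Aars, Gars, Iars, Tars and Yars. Their log2 fold changes were -0.04, -0.0005, -0.11, 0.02 and -0.09. So 1 lay above 0 and 4 below, with a median of -0.037, and 0 of 5 had a p under 0.05. The 8 cytosolic genes whose matched promoter held no element had a median of 0.064. All 13 intervals lay within 1.5-fold.

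Mitochondrial genes were evenly divided, with 8 log2 fold changes above 0 and 8 below. Their median was -0.018, and it was 0.019 under scaling by total counts alone, which moved the median of all genes from 0.0009 to 0.038. Below 0 lay Fars2 at -0.27, Nars2 at -0.23, Lars2 at -0.22, Mars2 at -0.18, Tars2 at -0.13, Pars2 at -0.10, Yars2 at -0.06 and Ears2 at -0.05. Above 0, besides Cars2, lay Wars2 at 0.23, Aars2 at 0.22, Rars2 at 0.17, Vars2 at 0.11, Sars2 at 0.08, Hars2 at 0.03 and Iars2 at 0.01. None of these 15 passed the test, and the lowest unadjusted p among them was 0.163, for Aars2.

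Cars2 encodes the mitochondrial cysteinyl-tRNA synthetase, an enzyme also known to make cysteine persulfides. Its level was 13.8, 9.62 and 8.21 CPM in WAS 1 to 3 and 7.62, 7.53 and 5.85 CPM in control 1 to 3. All 3 libraries labelled WAS were above all 3 controls, WAS 1 by far the most, while WAS 3 stood little above control 1. The means were 10.6 ± 2.92 and 7.001 ± 0.993 CPM (SD, n = 3). The fold change was 1.51 with a 95% interval of 1.05 to 2.15, an unadjusted p of 0.0280 and an adjusted p of 0.633. Without WAS 1 the log2 fold change was 0.34 (unadjusted p 0.160) instead of 0.59, and without control 3 it was 0.48 (p 0.0983). With limma on quantile-normalized values and all libraries kept, the log2 fold change was 0.54 (p 0.0618). The call thus rests on those libraries and on the method. WAS 1 also had the highest meninges marker sum (129 CPM, with 125 CPM in WAS 3), whose part in the Cars2 values was not tested.

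The Cars2 counts were 57 to 141 in a library. The gene lies at chr8:11513977-11550783 of GRCm38 on the minus strand, and its last exon, chr8:11513977-11514191, lies wholly within exons of Naxd on the plus strand, a repair enzyme for damaged NAD(P)H that the tables list as Carkd. Carkd had 24.9, 23.3 and 25.0 CPM against 22.1, 20.2 and 23.7 CPM, with an unadjusted p of 0.247. Its count was 1.80 to 4.05 times that of Cars2, so the counts of the neighbours did not move in a fixed ratio. That does not show that no reads were shared, and whether some Cars2 counts were Carkd reads was not tested. Cars, the cytosolic enzyme for the same amino acid, was at 19.2 ± 2.29 CPM against 21.6 ± 1.98 CPM (SD, n = 3), with overlapping groups.

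Aars2, the mitochondrial alanyl enzyme, was at 15.5, 16.4 and 15.7 CPM in WAS 1 to 3 and 14.3, 14.6 and 11.9 CPM in control 1 to 3. The groups did not overlap, but WAS 1 and control 2 were less than 1 CPM apart, and control 3 was the lowest. The log2 fold change was 0.22 with an SE of 0.15 and an unadjusted p of 0.163. Its cytosolic counterpart Aars overlapped between the groups, at 76.0 ± 8.44 against 78.0 ± 5.10 CPM (SD, n = 3).

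**Figure D4:**
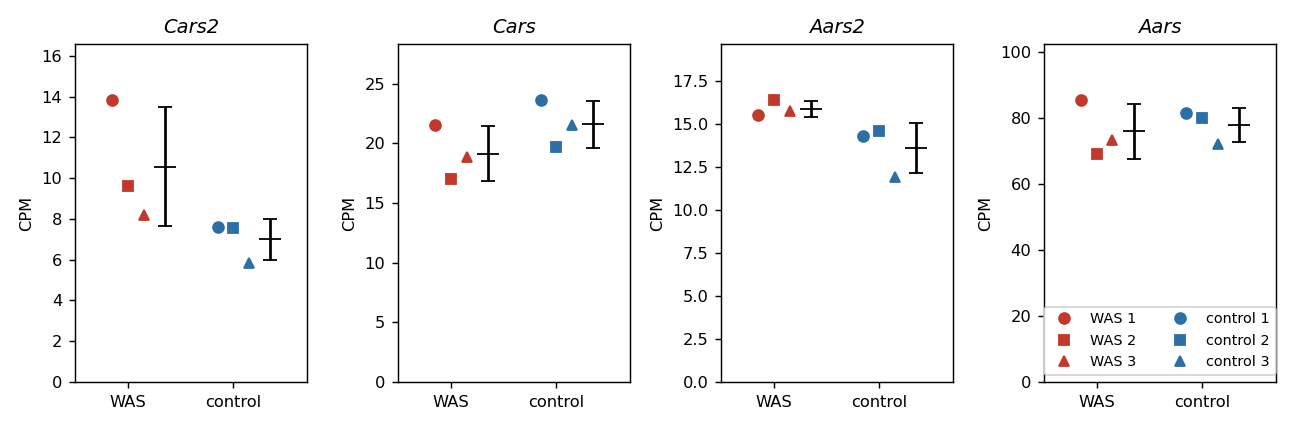
CPM of Cars2, Cars, Aars2 and Aars in each library by group, with black bars for the mean and SD of 3 mice; each panel has its own axis starting at 0. Red symbols lie above blue ones in the Cars2 and Aars2 panels, with WAS 1 the highest Cars2 value at 13.8 CPM, and the groups overlap in the Cars and Aars panels.

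Of 52 pathway genes tested outside the synthetases, 5 had an unadjusted p under 0.05 (9.62%), against 7.24% of all genes tested, and 0 passed after adjustment. Of the 3 complex scaffolds, Aimp1 and Aimp2 had log2 fold changes of 0.02 and -0.03, Eef1e1 had 0.33 (unadjusted p 0.138), and none passed the test. Mitochondria lack a glutaminyl-tRNA synthetase, and the tRNA is first charged with glutamate by Ears2 and then amidated by a complex of Gatb, Gatc and Qrsl1. These 3 and Mtfmt, which formylates the initiator tRNA, all had log2 fold changes below 0 (median -0.18), with Gatc at -0.13 and Qrsl1 at -0.22, and 0 of 4 passed the test. Of 3 further relatives of the synthetases, Tarsl2, a second cytosolic threonyl enzyme, had -0.13 and Pstk, a kinase acting on seryl-tRNA on the way to selenocysteine, had -0.23, and 0 of 3 passed.

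Genes that edit or recycle mischarged tRNA were all 6 above 0, against 50.2% of all genes tested, with a median of 0.081, and 1 of 6 had an unadjusted p under 0.05, against 7.24%. That gene was Prorsd1, related to bacterial deacylases that clear mischarged prolyl-tRNA. Its level was 10.4, 10.48 and 12.5 CPM against 9.43, 5.67 and 8.42 CPM, with a log2 fold change of 0.50 and an unadjusted p of 0.0408. The groups did not overlap and control 2 was the lowest. The unadjusted p was 0.159 without control 2 (log2 fold change 0.32), 0.133 without WAS 3 and 0.0565 without control 3. Dtd1 and Aarsd1, the most abundant of this list, had log2 fold changes of 0.04 and 0.12.

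Elongation factors carry charged tRNA to the ribosome or move the ribosome along. Of 6 cytosolic factors, 4 were above 0 and 1 passed an unadjusted p of 0.05. This was Eef1a2, the form of mature neurons and muscle, at 401, 415 and 390 CPM against 460, 454 and 439 CPM (log2 fold change -0.17, unadjusted p 0.0489), which lay lower in all 3 libraries labelled WAS, as the neuron marker sum did. Its p was under 0.05 in 2 of 12 alternative fits, with a log2 fold change of -0.19 to -0.10 over them. Eef2 and Eef1a1 had log2 fold changes of 0.06 and 0.05. Of 4 mitochondrial factors 3 were above 0 and none passed, with Gfm2 at -0.07 and Gfm1 at 0.06.

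The integrated stress response was read from its kinases and from ATF4 targets outside the synthetases. Of the 4 eIF2 kinases and eIF2α, 2 were above 0 and 3 below, with a median of -0.11. Eif2ak4, which encodes GCN2, the sensor of uncharged tRNA, was at 19.2, 16.3 and 15.03 CPM against 10.3, 14.5 and 13.1 CPM. Its groups did not overlap, although WAS 3 and control 2 were close, and its log2 fold change was 0.41 with an SE of 0.17, an unadjusted p of 0.0360 and an adjusted p of 0.664. Its p was under 0.05 in 8 of 12 alternative fits, and not with limma or without WAS 1, control 1 (log2 fold change 0.29) or control 3. Eif2ak1 and Eif2s1, the most abundant of the list, had log2 fold changes of -0.11 and -0.25. Eif2ak1 did not overlap between the groups either, in the opposite direction, at 59.9, 60.5 and 55.8 CPM against 63.98, 62.1 and 64.4 CPM.

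Of 22 genes of the ATF4 programme outside the synthetases, 21 had enough counts to be tested, and Stc2 did not. Their log2 fold changes were above 0 in 6 and below 0 in 15, with a median of -0.030, and 2 had an unadjusted p under 0.05, in opposite directions. Slc7a11, the cystine importer, was at 41.0, 41.8 and 52.8 CPM against 38.9, 36.7 and 37.4 CPM, with WAS 3 well above the rest (log2 fold change 0.26, unadjusted p 0.0475, and 0.13 without WAS 3). Slc7a1, an importer of arginine and lysine, was at 44.2, 40.7 and 45.4 CPM against 56.3, 59.3 and 46.8 CPM, lower in every library labelled WAS (log2 fold change -0.32, unadjusted p 0.0157, adjusted p 0.585). Atf4 itself was at 316, 263 and 304 CPM against 303, 314 and 321 CPM, with overlapping groups and a log2 fold change of -0.09. Slc3a2, the shared heavy chain of several amino acid importers, was at 0.03, and Asns, which makes asparagine, at -0.08. The element TGATGNAAN stood in the promoters of 6 of 20 matched genes of this list (30.0%), among them Asns and Slc7a11. The p of Slc7a11 was under 0.05 in 6 and that of Slc7a1 in 10 of 12 alternative fits. No gene of the list passed the adjusted test.

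**Figure D5:**
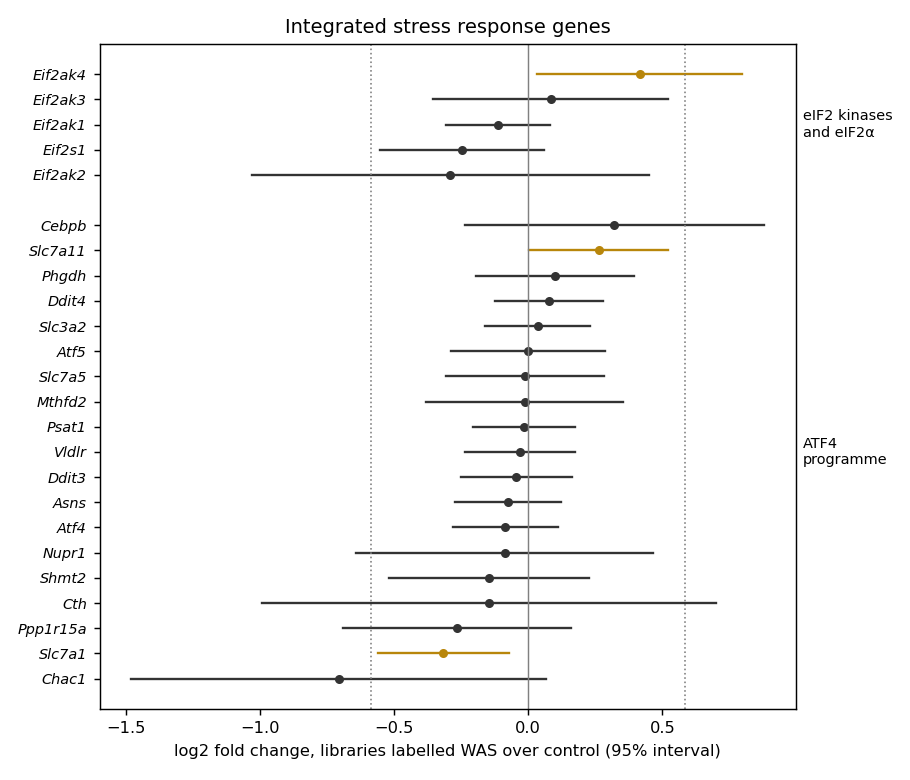
Log2 fold change, libraries labelled WAS over control, with 95% intervals from edgeR, for the eIF2 kinases with eIF2α (upper block) and for the 19 tested genes of the ATF4 programme with a mean of at least 1 CPM (lower block); dotted lines mark 1.5-fold and gold marks an unadjusted p under 0.05. Eif2ak4 and Slc7a11 lie above 0 and Slc7a1 below, while most targets, Atf4 included, cross 0.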

How the data were processed

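Forebrain RNA of 3 mice labelled WAS and 3 labelled control was analysed, 1 library per mouse. The authors made the deposited read counts from single-end QuantSeq 3′ reads of 75 bp, aligned with Bowtie2 and counted per gene, multiple alignments included, with Bedtools; the submitters' processing notes name mm10. Annotation and strand setting are not given in the sources used here. Counts were whole numbers with unequal totals, so the authors' quantile normalization is not in them. Groups came from the sample labels.

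Counts were scaled by TMM (factors 0.976 to 1.01) and tested with edgeR 4.0.16 (quasi-likelihood, R 4.3.3) on 15239 genes with a mean log2(quantile-normalized count + 1) of at least 2, with group as the only term and Benjamini-Hochberg adjustment over the genes tested. An SE is the log2 fold change over the square root of F. Reads carry no molecular identifiers, so counting error is a lower limit of technical error. Alternatives used DESeq2 1.42.0, limma 3.58.1, other filters, a replicate block and each library left out. All 36 synthetases were named, with, from the other pathway lists, genes with an unadjusted p under 0.05 and the 2 most abundant of each list. Genes named beyond this (Eef1e1, Gatb, Mtfmt, Stc2, Asns and the overlapping neighbours) were chosen after their values were seen. The members, lists and tests were chosen with earlier results of these data known. Last exons came from GENCODE M21 on GRCm38, the build of mm10, and promoters from RefSeq. A related gene is not reported here.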

Additional observations from a re-analysis of the deposited data

How the results depend on the processing

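The count of synthetases with an unadjusted p under 0.05, 1 with all libraries, was 0 with limma on quantile-normalized values and 0 to 2 with a library left out. It was 0 without WAS 1 and without control 3, and 2 without WAS 3, where Lars joined Cars2. The count meeting the study's criteria was 0 with limma, and 0 to 1 with a library left out. The count with an adjusted p under 0.05 was 0 in all 12 alternatives, although over all genes it was 491 without WAS 2, 31 with DESeq2 and 49 with the replicate block. The number of all genes with an unadjusted p under 0.05, 1104, ran from 623 without control 2 to 2084 without WAS 2.

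Same-numbered libraries correlated by 0.0784, 0.0987 and 0.0928 in their deviations from the group means, each library best with its own number, and this hint from the data does not pair them. With the replicate block 1 synthetase, Cars2, kept a p under 0.05 (log2 fold change 0.57), and 0 met the criteria; 1428 of all genes had a p under 0.05.

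The log2 ratio of the compartment sums, 0.010 higher in the libraries labelled WAS, was -0.081 as the difference of the medians of log2 CPM and -0.036 to 0.035 with a library left out. It was 0.0012 per kilobase and 0.013 without Mars and Iars2, alternatives chosen after seeing the data. With a library left out, the median log2 fold change was -0.033 to 0.035 (cytosolic) and -0.042 to 0.038 (mitochondrial). Of the 36 log2 fold changes, 14 kept their sign in all 12 alternatives, and no gene that turned was beyond 0.13 in size. Cars2 ran from 0.34 to 0.74 and Eif2ak4 from 0.29 to 0.52. The cause of these shifts was not tested. At 18 to 47 counts a library (Sars2, Pars2 and Mars2), depth limits what could be seen.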
